A study of Homo sapiens with 12 samples.

Results

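Matrix cross-linking enzymes are the 9 genes TGM2, LOX, LOXL1, LOXL2, LOXL3, LOXL4, PLOD1, PLOD2 and PLOD3, taken by their symbol from the 57905 genes of the deposited expression table. Each symbol matched 1 gene. RNA sequencing measured them in PC9, HCC827 and HCC4006, 3 established human cell lines from lung cancers that carry an EGFR mutation. Dormant cells had received 100 nM osimertinib, an inhibitor of the receptor kinase EGFR, and 30 nM trametinib, which inhibits the kinase MEK further down the same pathway, over 2 weeks in 15 cm dishes. DMSO cells had received the solvent for 24 hours in 10 cm dishes. Drug, time under treatment and dish size therefore changed together and cannot be told apart. Each line and condition had 2 libraries, 12 in all, from plates set up in duplicate. Nothing says that those plates came from separate cultures, so p-values measure only the spread between these samples, which may be technical.

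These enzymes join matrix proteins to each other, or prepare them to be joined. TGM2, tissue transglutaminase, links glutamine to lysine side chains of proteins such as fibronectin. LOX and the LOX-like enzymes LOXL1 to LOXL4 are copper-dependent amine oxidases that act mostly outside the cell, where they turn lysines of collagen and elastin into aldehydes that then cross-link. PLOD1, PLOD2 and PLOD3 hydroxylate lysines of procollagen inside the endoplasmic reticulum, and these hydroxylysines decide which kind of cross-link can form. In tissue much of this work is done by fibroblasts, but carcinoma cells express many of the same genes.

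Values are FPKM, fragments scaled by gene length and library size, so levels of different genes can be set side by side per length. A difference is the dormant minus the DMSO mean of log2(FPKM + 1), and its SE comes from a limma fit over all 12 libraries. Adding 1 shrinks the changes of genes at low levels. All 9 enzymes passed the filter of at least 1 FPKM in at least 2 libraries, among 14699 genes tested. LOXL4 reached 1 FPKM in dormant libraries only, so it passed through the condition in which it was high. A difference was called where its adjusted p lay under 0.05 (limma, two-sided, Benjamini-Hochberg over all genes tested).

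A pair of libraries stood apart from their replicates. The second HCC4006 dormant library listed GAPDH at 6.72 FPKM, against 3755.3 to 19644.7 FPKM in the other libraries, and 20.0% of its FPKM total was mitochondrial tRNA, where the rest had 0.513% to 2.66%. Across genes its values correlated with those of its replicate at r = 0.654. The second HCC827 DMSO library held 1842 FPKM of ACTB, against 12726 FPKM in its replicate, with r = 0.909 between them. Replicates of the other groups had r of 0.979 to 0.991. Epithelial markers were expressed as the labels imply, with 5 of 5 genes at 1 FPKM or more in every library. Of the 3 leukocyte markers CD3E was listed at 0 in all libraries and PTPRC reached at most 0.14 FPKM, but CD68 had 5.17 to 29 FPKM in 11 libraries and was listed at 0 in the second HCC4006 dormant library. Results that rest on the libraries that stood apart are given with all 12 libraries and again without both.

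In the mean over lines, LOX, LOXL1 and LOXL4 rose in dormant cells and TGM2 fell. These 3 rises and 1 fall among 9 enzymes stand beside 10.9% of all tested genes that were called higher and 4.55% that were called lower. The enzymes were chosen with earlier results of these data known. These counts, and the medians that follow, therefore describe the chosen genes and do not test the set. The members' median difference was 0.96, against 0.22 for all genes tested. Without both libraries that stood apart it was 0.49, against 0.20 for all genes tested. Rescaling the libraries by the median of ratios brought the median of all genes to 0.03 and the share of calls that were higher to 49.3%, against 70.5% without it. All 4 calls held under that scaling and under quantile normalization. With the 3 lines as the only replicates, no enzyme was called and the adjusted p of these 4 was 0.452 to 0.469 (limma). The collagen genes COL5A1, COL1A1 and COL6A1 had nearly the same adjusted p in that fit, 0.452, 0.455 and 0.472 (limma). That fit has only 3 values per gene, and no share of all genes called is given for it. Its lost calls are therefore not a result about these enzymes. When both libraries that stood apart were left out, 5 enzymes were called higher and 2 lower, where 30% of all tested genes were called higher and 12.8% lower.

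Within lines, 1 enzyme was called higher and 1 lower in PC9, where 1.82% and 0.891% of all genes were. In HCC827 1 was called higher, beside 3.06% of all genes. None was lower there by limma, beside 1.44% of all genes. None was lower at an unadjusted p under 0.05 either, a threshold for which no share of all genes is given. In HCC4006 3 were called higher, beside 4.88% of all genes. None was lower there by limma, beside 1.18% of all genes. At an unadjusted p under 0.05 none was lower either, again with no share of all genes given. The difference itself varied between lines for 4 enzymes, TGM2, LOX, LOXL1 and LOXL4, beside 1.48% of all genes. Libraries that did not overlap were common in these data. Both dormant libraries lay above both DMSO libraries for 4 enzymes in PC9, 4 in HCC827 and 3 in HCC4006, where 35.5%, 40.1% and 30.4% of all genes did. They lay below for 4, 3 and 2 enzymes, where 27%, 19.4% and 15.8% of all genes did.

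**Figure D1:**
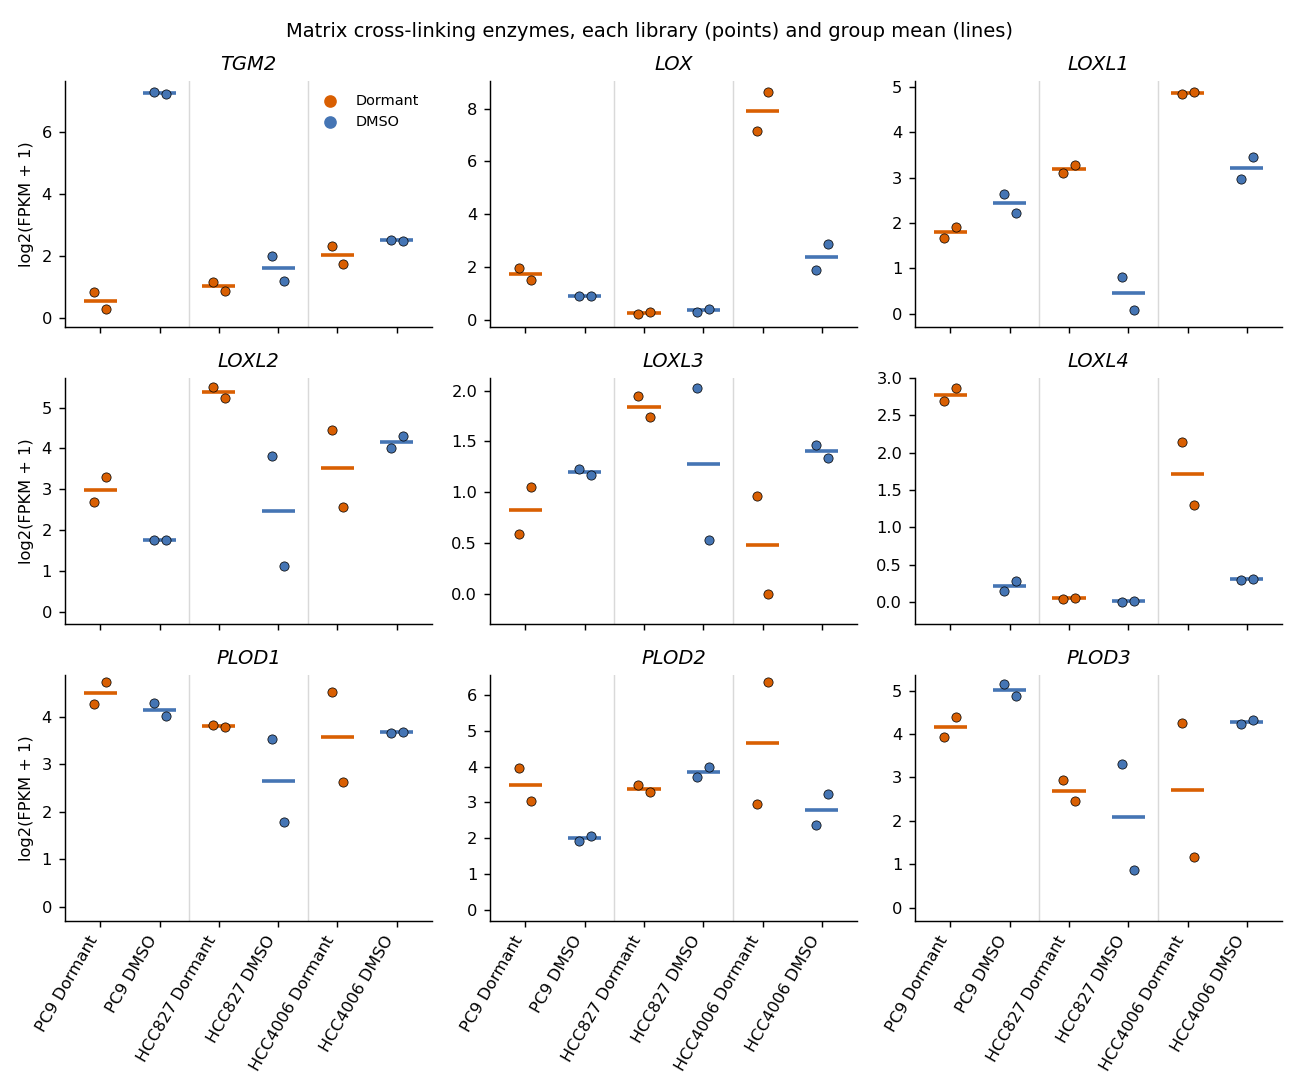
Level of each of the 9 enzymes, as log2(FPKM + 1), in dormant and DMSO cells of PC9, HCC827 and HCC4006. Points are the 2 libraries of a group and lines their mean. TGM2 is high in PC9 DMSO cells, at 155 and 149 FPKM, and LOX in HCC4006 dormant cells, at 143 and 395 FPKM.

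TGM2 fell to near 0 in dormant PC9 cells. It had 0.81 and 0.215 FPKM in PC9 dormant cells, against 155 and 149 FPKM in PC9 DMSO cells. Both dormant libraries lay far below both controls, and the ratio of the means, DMSO over dormant, was 296. On the log2 scale TGM2 fell by 6.69 ± 0.43 (SE) with an adjusted p of 7.28e-05 (limma), the lowest difference of all 14699 genes in that line. By mean level TGM2 ranked above 18.0% of tested genes in PC9 dormant cells, against 96.5% in PC9 DMSO cells. In bulk RNA, fewer cells with a transcript and less transcript per cell cannot be told apart.

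The other lines had far less TGM2 than PC9 in DMSO cells. It had 1.25 and 0.845 FPKM in HCC827 dormant cells, against 3.04 and 1.3 FPKM in HCC827 DMSO cells. In HCC4006 it had 3.98 and 2.38 FPKM in dormant cells, against 4.75 and 4.59 FPKM in DMSO cells. Dormant libraries lay below DMSO libraries without overlap in both lines, but neither difference passed the test. It was -0.58 ± 0.43 in HCC827 (adjusted p = 0.536, limma) and -0.47 ± 0.43 in HCC4006 (adjusted p = 0.483, limma). The difference varied between lines (adjusted p = 0.00139, limma F test), and the mean over lines of -2.58 ± 0.25 (adjusted p = 0.000312, limma) rested mostly on PC9. Leaving out any 1 library ended neither the call in PC9 nor the one between lines. Leaving out both libraries that stood apart gave a difference of -0.99 in HCC827 (adjusted p = 0.063, limma) and -0.19 in HCC4006 (adjusted p = 0.719, limma).

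Among tested genes the pattern most like that of TGM2 over the 12 libraries belonged to a gene that the table gives only as ENSG00000182572 (Pearson r = 0.976, Spearman rho = 0.904). Next came MYH16 (r = 0.976, rho = 0.767) and TFF1, a secreted trefoil peptide (r = 0.956, rho = 0.829). TFF1 was listed at 0 in all 6 dormant libraries, and it had 12.1 and 9.42 FPKM in PC9 DMSO cells, 0.44 and 0.63 FPKM in HCC827 DMSO cells and 1.42 and 1.53 FPKM in HCC4006 DMSO cells. MYH16 had 0.055 FPKM in both PC9 dormant libraries, against 14.2 and 14.5 FPKM in PC9 DMSO cells. These likenesses rest largely on the PC9 DMSO libraries, which are high for each of these genes.

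LOX was high in 1 of the 6 groups, the dormant HCC4006 cells. It had 143 and 395 FPKM in HCC4006 dormant cells, against 2.67 and 6.28 FPKM in HCC4006 DMSO cells. The ratio of the means, dormant over DMSO, was 60.2, and the log2 difference was 5.53 ± 0.53 (adjusted p = 0.000596, limma), the 9th highest of 14699 genes in that line. The higher dormant value came from the library that stood apart. Without that library and the second HCC827 DMSO library the difference was 4.80 (adjusted p = 0.000147, limma). Fitted from the HCC4006 libraries alone, the difference was 5.53 ± 0.87 and was no longer called (adjusted p = 0.604, limma). That fit has few libraries and includes the one that stood apart. No share of all genes called is given for it, so the lost call does not decide whether LOX changed.

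In PC9 LOX had 2.86 and 1.81 FPKM in dormant cells, against 0.865 and 0.835 FPKM in DMSO cells. Those libraries did not overlap, and the difference of 0.83 ± 0.53 did not pass the test (adjusted p = 0.663, limma). HCC827 held the least LOX of the 3 lines, with 0.155 and 0.225 FPKM in dormant cells and 0.235 and 0.33 FPKM in DMSO cells, a difference of -0.11 (adjusted p = 0.965, limma). The mean over lines was 2.09 ± 0.31 (adjusted p = 0.00226, limma). The difference varied between lines (adjusted p = 0.00965, limma F test), a call that was lost without the first HCC827 dormant library (adjusted p = 0.0507, limma) and without the first HCC4006 DMSO library (adjusted p = 0.0679, limma).

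The genes whose pattern was most like that of LOX over the 12 libraries were PCSK5, a proprotein convertase (r = 0.994, rho = 0.97), XKR9 (r = 0.993, rho = 0.951) and NRXN3, a neurexin (r = 0.99, rho = 0.803). All of them were low outside dormant HCC4006 cells. PCSK5 had 3.04 and 5.82 FPKM in HCC4006 dormant cells, against 0.4 and 0.54 FPKM in HCC4006 DMSO cells, and at most 0.37 FPKM in any library of the other lines. NRXN3 had 11.1 and 27.9 FPKM in HCC4006 dormant cells, against 0.805 and 1.38 FPKM in HCC4006 DMSO cells. As with LOX, the second dormant library held the higher value of each.

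The promoters of LOX, LOXL1 and LOXL4 are printed because each was called higher in the mean over lines. Their differences varied between lines, and HCC4006 was the only line in which all 3 were called. Each line gives the 250 bases before the transcription start in the RefSeq table, 5′ to 3′ on the strand of the gene, on build GRCh38.p14, which is later than the build of the expression values. LOX lies at chr5:122078260-122078509 on the minus strand, at the farthest upstream of its 3 listed starts. LOXL1 lies at chr15:73926212-73926461 on the plus strand, and LOXL4 at chr10:98268195-98268444 on the minus strand. Capitals mark ACGTG or GCGTG on either strand, the core that hypoxia-inducible factors recognize, and GGAATG on either strand, a core that TEAD factors, the DNA-binding partners of YAP, recognize.
LOX: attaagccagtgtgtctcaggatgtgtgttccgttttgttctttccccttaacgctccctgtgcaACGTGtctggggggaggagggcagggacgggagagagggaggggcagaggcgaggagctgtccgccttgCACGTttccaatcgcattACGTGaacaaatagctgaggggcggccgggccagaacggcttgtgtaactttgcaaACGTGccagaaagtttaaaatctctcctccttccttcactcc
LOXL1: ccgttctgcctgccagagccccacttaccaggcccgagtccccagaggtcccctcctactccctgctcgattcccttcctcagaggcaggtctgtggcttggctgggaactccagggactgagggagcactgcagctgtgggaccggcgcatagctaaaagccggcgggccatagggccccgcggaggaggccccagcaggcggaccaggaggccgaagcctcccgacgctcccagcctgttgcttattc
LOXL4: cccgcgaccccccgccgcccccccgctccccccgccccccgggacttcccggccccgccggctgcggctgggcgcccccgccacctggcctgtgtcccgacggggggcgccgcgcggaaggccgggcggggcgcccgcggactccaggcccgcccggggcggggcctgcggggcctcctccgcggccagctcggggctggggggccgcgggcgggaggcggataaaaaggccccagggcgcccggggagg
The LOX sequence holds 4 matches to the hypoxia core. On the strand shown they begin 185, 116, 98 and 42 bases before the start. At least 4 such matches stand in 3.22% of 35116 RefSeq promoter sequences of that length, and at least 1 in 43.2%. The other listed starts of LOX have 2 matches each. PLOD2 has 3 matches and PLOD1 has 2, and neither gene was called with all libraries. GGAATG, which 11.9% of those sequences hold, is in none of the 3 printed here. Neither core is in the LOXL1 or LOXL4 sequence, and the LOXL4 sequence stands out by its GC content of 86.4%, against 55.2% for LOX and 66.8% for LOXL1. A match is a description of letters, and whether a factor binds there was not measured.

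LOXL1, which is known for cross-linking elastin, rose in HCC827 and HCC4006. It had 7.57 and 8.7 FPKM in HCC827 dormant cells, against 0.755 and 0.06 FPKM in HCC827 DMSO cells, a difference of 2.74 ± 0.41 (adjusted p = 0.00676, limma). The low second DMSO value came from the library that stood apart, and without both such libraries the difference was 2.38 (adjusted p = 0.00165, limma). The call was lost without either HCC827 dormant library (adjusted p = 0.0804 and 0.0834, limma).

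In HCC4006 LOXL1 had 27.7 and 28.5 FPKM in dormant cells, against 6.79 and 9.88 FPKM in DMSO cells. The dormant libraries lay close together, and the difference of 1.66 ± 0.41 passed the test narrowly (adjusted p = 0.0458, limma). Leaving out any 1 of the 4 PC9 libraries, the 2 HCC827 dormant or the 2 HCC4006 DMSO libraries ended that call, with adjusted p of 0.0914 to 0.293 (limma), and so did both other scalings of the libraries. It held without both libraries that stood apart, at a difference of 1.64 (adjusted p = 0.01, limma). In PC9 LOXL1 had 2.18 and 2.77 FPKM in dormant cells, against 5.23 and 3.66 FPKM in DMSO cells, which is lower without overlap but not past the test (difference -0.64, adjusted p = 0.676, limma).

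Over the 3 lines the LOXL1 mean was 1.25 ± 0.24 (adjusted p = 0.00775, limma), and its difference varied between lines (adjusted p = 0.045, limma F test). The call between lines was lost without any 1 of the PC9 libraries, the HCC827 dormant libraries, the second HCC827 DMSO library or the HCC4006 DMSO libraries, with adjusted p of 0.0941 to 0.291 (limma). The antisense gene LOXL1-AS1 overlaps LOXL1. It had 30.3 and 5.59 FPKM in HCC4006 dormant cells, against 7.07 and 8.79 FPKM in HCC4006 DMSO cells, and 3.37 and 3.63 FPKM in HCC827 dormant cells, against 0.79 and 0.455 FPKM in HCC827 DMSO cells. Libraries were stranded, but whether counting used the strand is not given in the sources used here, so the share of reads between the pair is uncertain.

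LOXL4 rose in PC9 and HCC4006 from levels near 0 in DMSO cells. It had 5.47 and 6.27 FPKM in PC9 dormant cells, against 0.105 and 0.21 FPKM in PC9 DMSO cells, a difference of 2.57 ± 0.29 (adjusted p = 0.00137, limma) and a ratio of the means, dormant over DMSO, of 37.3. In HCC4006 it had 3.41 and 1.46 FPKM in dormant cells, against 0.23 and 0.24 FPKM in DMSO cells, a difference of 1.42 ± 0.29 (adjusted p = 0.0238, limma). The libraries did not overlap in either line.

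The PC9 call of LOXL4 held without any 1 library, though the gene was not tested under a filter of 1 FPKM in 6 libraries. The HCC4006 call was lost without either PC9 DMSO library, either HCC827 dormant library or either HCC4006 DMSO library, with adjusted p of 0.0586 to 0.172 (limma), and under the median of ratios scaling. The HCC4006 difference was 1.84 without both libraries that stood apart (adjusted p = 0.000586, limma). HCC827 had almost no LOXL4, with 0.03 and 0.035 FPKM in dormant cells, against 0 and 0.01 FPKM in DMSO cells, values a few rounding steps of 0.01 apart. The mean over lines was 1.34 ± 0.17 (adjusted p = 0.00109, limma). The difference varied between lines (adjusted p = 0.0371, limma F test). That call was lost without any 1 library of PC9, HCC827 or HCC4006 DMSO, with adjusted p of 0.0979 to 0.2 (limma).

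LOXL2, which acts on the collagen IV of basement membranes, was the LOX family member with the highest level in HCC827. It had 44.6 and 36.8 FPKM in HCC827 dormant cells, against 13.1 and 1.18 FPKM in HCC827 DMSO cells. The libraries did not overlap, but the DMSO values lay far from each other, and the difference of 2.91 ± 0.84 was not called (adjusted p = 0.0914, limma). In PC9 LOXL2 had 5.42 and 8.91 FPKM in dormant cells, against 2.38 and 2.4 FPKM in DMSO cells, a difference of 1.24 that was not called (adjusted p = 0.709, limma). In HCC4006 it had 21.0 and 4.97 FPKM in dormant cells, against 15.1 and 18.9 FPKM in DMSO cells, with the low value in the library that stood apart.

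LOXL2 was called higher without both libraries that stood apart, in HCC827 (difference 1.56, adjusted p = 0.0119, limma), in PC9 (1.24, adjusted p = 0.0109, limma) and in the mean over lines (1.03, adjusted p = 0.00191, limma). Under that fit 11.1% of all genes were called higher in HCC827 and 13.1% in PC9. With all libraries the mean was 1.17 ± 0.49 (adjusted p = 0.13, limma). In HCC4006 the difference of -0.64 with all libraries became 0.30 without the second dormant library, and neither was called.

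LOXL3 was low throughout, with no library above 3.07 FPKM, and it was called in no comparison. It had 0.505 and 1.07 FPKM in PC9 dormant cells, against 1.33 and 1.25 FPKM in PC9 DMSO cells. HCC827 had 2.85 and 2.34 FPKM in dormant cells, against 3.07 and 0.44 FPKM in DMSO cells. In HCC4006 it had 0.95 FPKM in the first dormant library and was listed at 0 in the second, against 1.76 and 1.53 FPKM in DMSO cells. Its mean difference was -0.24 ± 0.28 (adjusted p = 0.58, limma). Without both libraries that stood apart the difference was -0.18 in HCC827, in place of 0.57, and -0.44 in HCC4006, in place of -0.92, and neither was called.

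**Figure D2:**
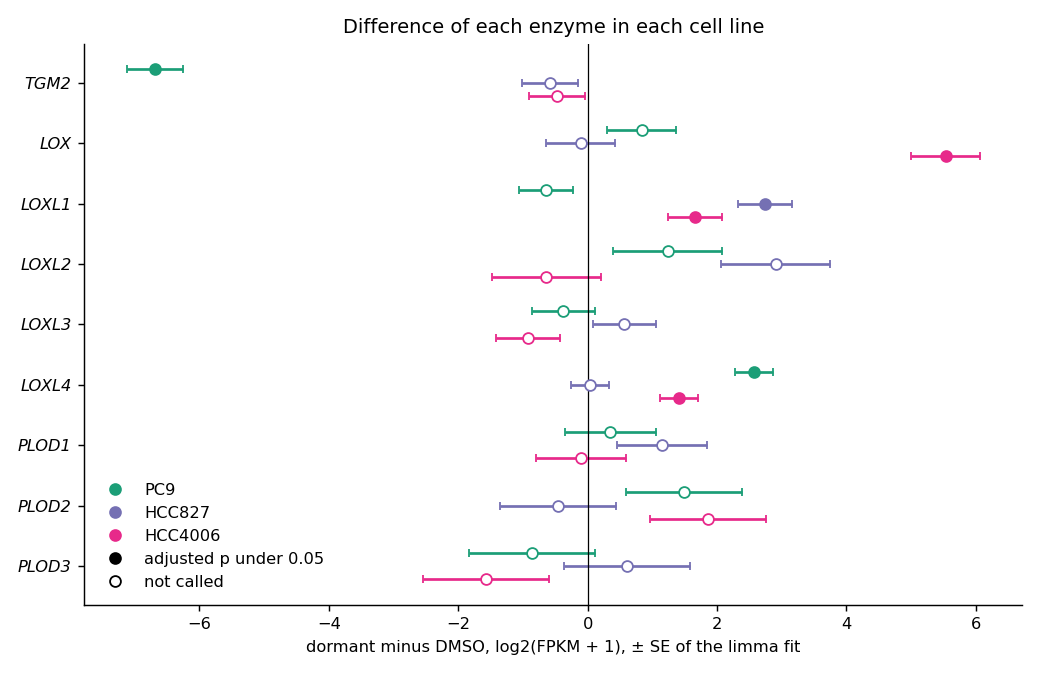
Difference of each enzyme, dormant minus DMSO in units of log2(FPKM + 1), in PC9, HCC827 and HCC4006. Bars are the SE of the limma fit, and filled points have an adjusted p under 0.05. TGM2 in PC9 (-6.69) and LOX in HCC4006 (5.53) lie farthest from 0, and no PLOD gene is filled.

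The mix of LOX family members differed from line to line. The summed FPKM of the 5 genes was 16.4 and 20.8 in PC9 dormant cells, against 9.91 and 8.35 in PC9 DMSO cells. It was 55.2 and 48.1 in HCC827 dormant cells, against 17.2 and 2.02 in HCC827 DMSO cells. In HCC4006 it was 196 and 430 in dormant cells, against 26.5 and 36.8 in DMSO cells. The dormant sums were higher without overlap in every line. These sums and the shares below are descriptions with no test.

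In PC9 LOXL4 made up 33.3% and 30.1% of the family's summed FPKM in dormant cells, against 1.06% and 2.52% in DMSO cells. LOXL1 made up 13.3% in both PC9 dormant libraries, against 52.8% and 43.8% in PC9 DMSO cells. LOXL2 made up 33.0% and 42.8% in PC9 dormant cells, against 24.0% and 28.7% in PC9 DMSO cells. In HCC827 LOXL2 was the leading gene in both conditions, at 80.8% and 76.5% in dormant cells and 76.3% and 58.4% in DMSO cells. In HCC4006 LOX made up 73.0% and 91.9% in dormant cells, against 10.1% and 17.1% in DMSO cells, where LOXL2 led with 56.8% and 51.3%.

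**Figure D3:**
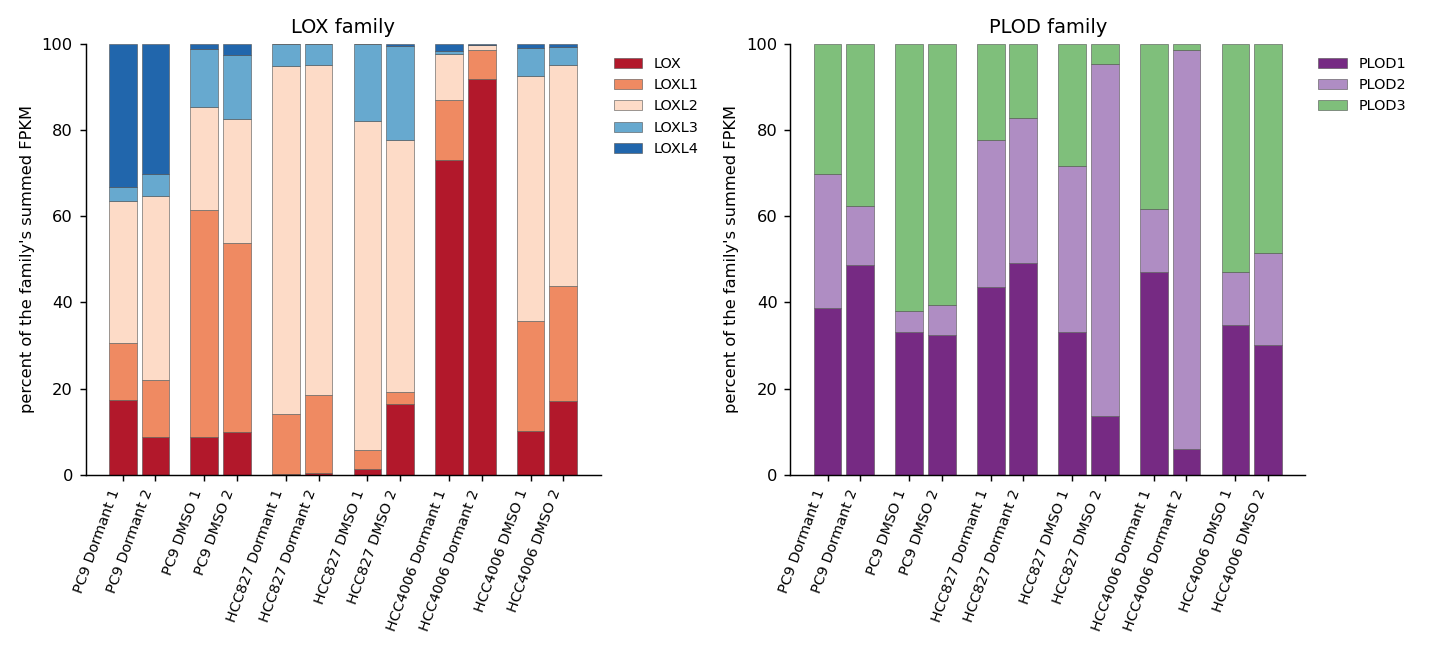
Share of each gene in the summed FPKM of its family, in percent, for every library, with dormant cells left of DMSO cells of the same line. LOX fills 73.0% and 91.9% of the LOX family in HCC4006 dormant cells, and LOXL4 33.3% and 30.1% in PC9 dormant cells.

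The lysyl hydroxylases PLOD1, PLOD2 and PLOD3 were expressed in all 3 lines, and none was called in the mean or in any line with all libraries. PLOD1, which hydroxylates lysines in the helix of collagen, had 18.2 and 25.8 FPKM in PC9 dormant cells, against 18.5 and 15.2 FPKM in PC9 DMSO cells, and these overlapped. It had 13.1 and 12.8 FPKM in HCC827 dormant cells, against 10.5 and 2.44 FPKM in HCC827 DMSO cells, and 22.1 and 5.19 FPKM in HCC4006 dormant cells, against 11.7 and 11.9 FPKM in HCC4006 DMSO cells. Its mean difference was 0.47 ± 0.40 (adjusted p = 0.45, limma). Without both libraries that stood apart it was 0.49 and was called (adjusted p = 0.0322, limma), and the HCC4006 difference was 0.85 in place of -0.10 (adjusted p = 0.0705, limma).

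PLOD2, which hydroxylates lysines of the collagen telopeptides, was not called in any line. It had 14.5 and 7.17 FPKM in PC9 dormant cells, against 2.83 and 3.17 FPKM in PC9 DMSO cells, with no overlap and a difference of 1.49 ± 0.89 (adjusted p = 0.62, limma). HCC827 had 10.2 and 8.71 FPKM in dormant cells, against 12.1 and 14.8 FPKM in DMSO cells. HCC4006 had 6.82 FPKM in the first dormant library and 80.2 FPKM in the second, the one that stood apart, against 4.13 and 8.42 FPKM in DMSO cells. Its test between lines gave an adjusted p of 0.493 (limma F test). PLOD2 was called higher in PC9 without both libraries that stood apart (adjusted p = 0.0199, limma), and its HCC4006 difference was 0.17 in place of 1.86.

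PLOD3, which hydroxylates and also glycosylates collagen lysines, had 14.2 and 19.9 FPKM in PC9 dormant cells, against 34.6 and 28.4 FPKM in PC9 DMSO cells. It had 6.68 and 4.49 FPKM in HCC827 dormant cells, against 8.99 and 0.825 FPKM in HCC827 DMSO cells, and 18.0 and 1.26 FPKM in HCC4006 dormant cells, against 17.8 and 19.2 FPKM in HCC4006 DMSO cells. Only in PC9 did the libraries not overlap. The PC9 difference of -0.86 ± 0.97 was not called with all libraries (adjusted p = 0.928, limma) and was called without both that stood apart (adjusted p = 0.0451, limma), as was the mean of -0.51 (adjusted p = 0.0428, limma). The HCC827 difference was then -0.62 in place of 0.61, and the HCC4006 difference -0.04 in place of -1.57, with neither called. PLOD3 overlaps ZNHIT1 on the other strand, which had 121 and 137 FPKM in PC9 dormant cells, against 59.4 and 53.2 FPKM in PC9 DMSO cells.

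Within the PLOD family the mix in PC9 differed by condition, as a description with no test. PLOD3 made up 30.2% and 37.7% of the family's summed FPKM in PC9 dormant cells, against 61.9% and 60.7% in PC9 DMSO cells. PLOD2 made up 31.0% and 13.6% in PC9 dormant cells, against 5.07% and 6.79% in PC9 DMSO cells. The family's sum itself was 46.9 and 52.9 FPKM in PC9 dormant cells, against 55.9 and 46.7 FPKM in PC9 DMSO cells, which overlapped.

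DMSO cells of the 3 lines differed in TGM2 and LOXL1, the 2 enzymes called by an F test over the DMSO groups, beside 12% of all genes. TGM2 was lower in HCC827 DMSO than in PC9 DMSO cells by a difference of -5.65 ± 0.43 (adjusted p = 5.48e-05, limma) and lower in HCC4006 DMSO than in PC9 DMSO cells by -4.75 ± 0.43 (adjusted p = 0.000165, limma). LOXL1 was higher in HCC4006 DMSO than in HCC827 DMSO cells by 2.75 ± 0.41 (adjusted p = 0.00392, limma), and lower in HCC827 DMSO than in PC9 DMSO cells by -1.98 ± 0.41 (adjusted p = 0.0173, limma).

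In rising order of group means, TGM2 ran PC9 dormant (0.512 ± 0.421 FPKM, SD, n = 2), HCC827 dormant (1.05 ± 0.286), HCC827 DMSO (2.17 ± 1.23), HCC4006 dormant (3.17 ± 1.13), HCC4006 DMSO (4.67 ± 0.11) and PC9 DMSO (152 ± 4.64). PC9 thus held both ends of that order, and the libraries of neighbours overlapped only between HCC4006 dormant and HCC827 DMSO cells. In falling order, LOX ran HCC4006 dormant (269 ± 178 FPKM, SD, n = 2), HCC4006 DMSO (4.47 ± 2.55), PC9 dormant (2.34 ± 0.739), and PC9 DMSO (0.85 ± 0.0212). HCC827 was lowest, with HCC827 dormant (0.19 ± 0.0495) below HCC827 DMSO cells (0.282 ± 0.0672). Overlap among neighbours was between HCC4006 DMSO and PC9 dormant cells.

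Other genes of collagen and elastin maturation were described from 4 lists holding 54 genes, of which 32 were tested. In the mean over lines 11 of the 32 rose, against 10.9% of all genes called higher, and none fell, against 4.55% called lower (limma). At an unadjusted p under 0.05, 17 were higher and none lower, but no share of all genes is given for that threshold. Their median difference was 0.82, against 0.22 for all genes tested. Under the median of ratios scaling 8 rose, and without both libraries that stood apart 22 did, where 30% of all tested genes were called higher. The 8 genes named below with a rise in the mean were all called without both as well. By line, 3 were called higher in PC9, 4 in HCC827 and 8 in HCC4006, beside 1.82%, 3.06% and 4.88% of all genes. None was lower by limma, beside 0.891%, 1.44% and 1.18% of all genes. At an unadjusted p under 0.05, 1 was lower in PC9.

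The substrates that these enzymes cross-link held most of those calls, with 6 of 8 tested genes higher, beside 10.9% of all genes. The list has 18 genes, and those not tested were too low for the filter. COL1A1 passed the filter through dormant libraries only, and COL1A2 reached 1 FPKM in DMSO cells only at 1.04 FPKM in HCC4006. The count of 6 therefore depends in part on the filter. FN1, fibronectin and a TGM2 substrate, rose by 2.51 ± 0.26 in the mean (adjusted p = 0.000431, limma). It had 57.8 and 69.0 FPKM in PC9 dormant cells, against 5.51 and 7.98 FPKM in PC9 DMSO cells, so that it was high in the dormant cells in which TGM2 was low. In HCC827 FN1 had 32.8 and 37.4 FPKM in dormant cells, against 5.76 and 3.1 FPKM in DMSO cells, and in HCC4006 26.5 and 40.0 FPKM in dormant cells, against 8.86 and 9.96 FPKM in DMSO cells.

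COL1A2, a chain of fibrillar collagen I, rose by 2.5 ± 0.21 in the mean (adjusted p = 0.000206, limma). In HCC4006 it had 368 and 250 FPKM in dormant cells, against 0.77 and 1.04 FPKM in DMSO cells, high in the same group as LOX. COL1A2 stayed at or below 0.655 FPKM in every PC9 and HCC827 library. Its partner chain gene COL1A1 had 7.45 and 12.2 FPKM in HCC4006 dormant cells, against 0.805 and 0.48 FPKM in HCC4006 DMSO cells.

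COL4A1, a chain of basement membrane collagen IV, rose by 1.77 ± 0.24 in the mean (adjusted p = 0.00166, limma). It had 13 and 11.9 FPKM in HCC827 dormant cells, against 0.355 and 0.18 FPKM in HCC827 DMSO cells, and 219 and 109 FPKM in HCC4006 dormant cells, against 36.0 and 33.5 FPKM in HCC4006 DMSO cells. In PC9 it was at or below 0.325 FPKM in all 4 libraries. COL5A1, COL1A1 and COL6A1 were the other substrates called. The COL6A1 call (difference 0.90, adjusted p = 0.0423, limma) was lost without any 1 of 10 libraries, all but the HCC4006 dormant ones, with adjusted p of 0.0599 to 0.128 (limma), and under both other scalings of the libraries.

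Among other cross-linking enzymes, 2 of 3 tested genes rose, beside 10.9% of all genes, but only TGM1 was called under both other scalings of the libraries. TGM1 passed the filter through dormant libraries only. TGM1, the transglutaminase of the cornified envelope in skin, rose by 1.85 ± 0.32 in the mean (adjusted p = 0.00535, limma). In PC9 it had 7.92 and 8.74 FPKM in dormant cells, against 0.285 and 0.185 FPKM in DMSO cells, a difference of 2.92 (adjusted p = 0.0254, limma), opposite in sign to that of TGM2 in the same libraries. PXDN, peroxidasin, which forms sulfilimine bonds in collagen IV, rose by 1.20 ± 0.31 (adjusted p = 0.0303, limma), a call lost without any 1 of 9 libraries, all but the first HCC827 DMSO and the HCC4006 dormant libraries, with adjusted p of 0.0677 to 0.0943 (limma).

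In the list of procollagen processing and LOX activation 2 of 8 tested genes rose, beside 10.9% of all genes. FBLN5 passed the filter through dormant libraries only, and EFEMP2 reached 1 FPKM in DMSO cells only at 1.36 FPKM in HCC4006. FBLN5 and EFEMP2, fibulins that bring LOX enzymes to elastic fibres, rose by 1.40 ± 0.18 (adjusted p = 0.00122, limma) and 1.34 ± 0.23 (adjusted p = 0.00526, limma). FBLN5 had 24.3 and 13.3 FPKM in HCC4006 dormant cells, against 0.74 and 0.755 FPKM in HCC4006 DMSO cells. BMP1, the protease that cleaves the LOX propeptide, had a mean difference of 1.25 ± 0.42 that was not called (adjusted p = 0.0724, limma). It was called higher under quantile normalization and with array quality weights, but not under the median of ratios scaling. In HCC4006 dormant cells BMP1 had 10.4 FPKM in the first library and 0.825 FPKM in the second, the one that stood apart. HCC4006 DMSO cells had 4.06 and 3.64 FPKM.

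Of 13 tested genes for collagen hydroxylation and folding, 1 was called higher, beside 10.9% of all tested genes. That call was lost under both other scalings of the libraries. P3H1, a prolyl 3-hydroxylase, rose by 1.16 ± 0.31 (adjusted p = 0.0332, limma), a call lost without any 1 PC9, HCC827 dormant or HCC4006 DMSO library, with adjusted p of 0.0669 to 0.106 (limma). The list's median difference of 0.26 lay beside 0.22 for all genes. The collagen chaperone SERPINH1 had a mean difference of 0.28 ± 0.31 (adjusted p = 0.559, limma) and the prolyl 4-hydroxylase subunit P4HA1 one of -0.31 ± 0.24 (adjusted p = 0.388, limma). The SERPINH1 mean joined opposite signs, -1.3 in PC9 (adjusted p = 0.343, limma) and 1.81 in HCC4006 (adjusted p = 0.071, limma). Neither was called, and the libraries did not overlap in either line. SERPINH1 was the list gene that was lower in PC9 at an unadjusted p under 0.05. Like the PLOD genes, most of these intracellular enzymes were not called, and the same held for most of all tested genes. Without the 2 libraries that stood apart 6 of the 13 were called higher, where 30% of all tested genes were.

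**Figure D4:**
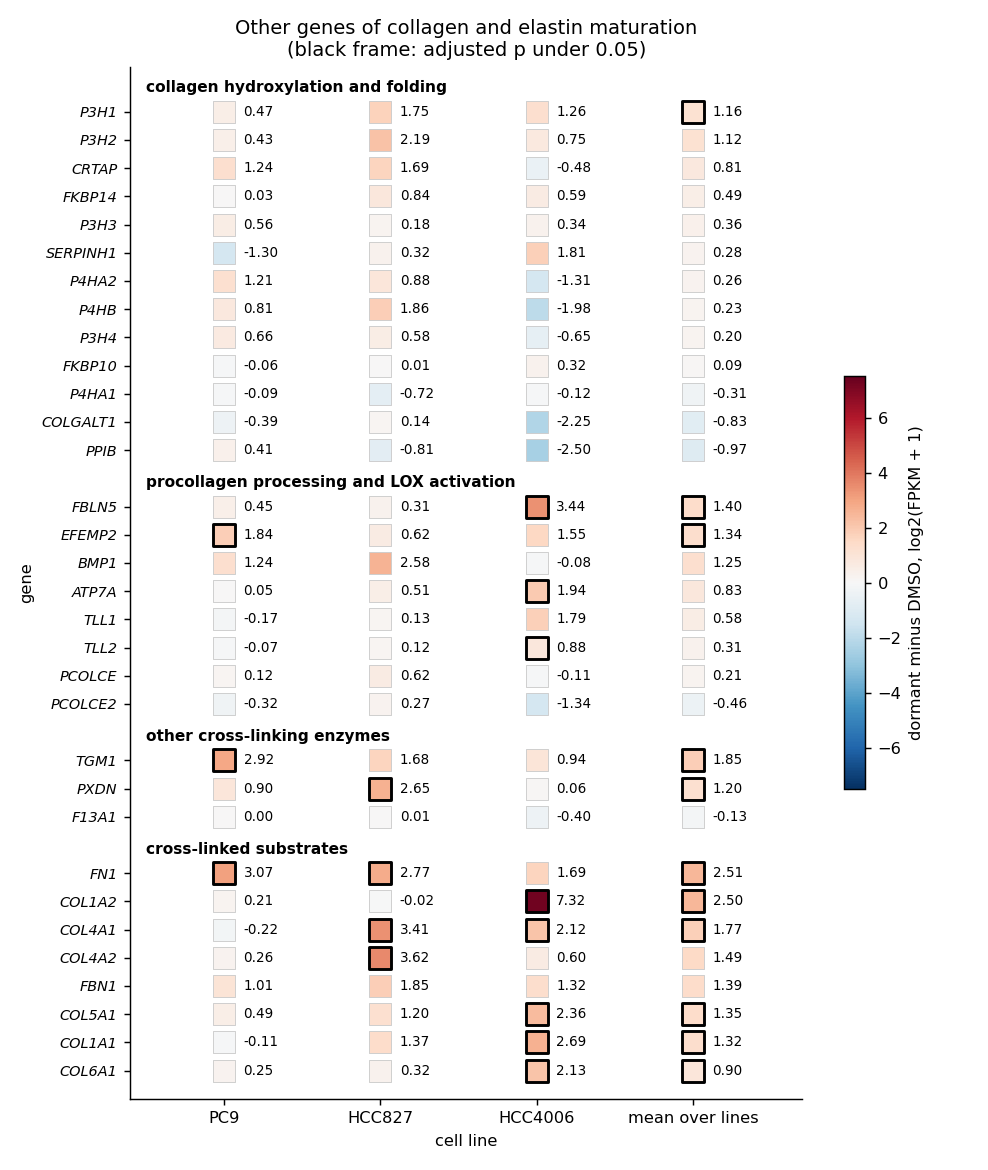
Difference of the 32 tested genes of the 4 lists, dormant minus DMSO in units of log2(FPKM + 1), in each line and in the mean over lines. Black frames mark an adjusted p under 0.05. COL1A2 stands out in HCC4006 at 7.32, and framed genes in the mean are mostly substrates, 6 of 11.

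The summed level of the fibroblast markers was higher in dormant cells without overlap in all 3 lines. Their 7 genes summed to 13.9 and 15.7 FPKM in HCC4006 dormant cells, against 2.25 and 2.29 FPKM in HCC4006 DMSO cells, and to 3.83 and 3.88 FPKM in HCC827 dormant cells, against 0.605 and 1.54 FPKM in HCC827 DMSO cells. PC9 sums were 0.92 and 1.19 FPKM in dormant cells, against 0.76 and 0.64 FPKM in DMSO cells, and no marker reached 1 FPKM in a PC9 library. Among single tested genes, 35.5% in PC9, 40.1% in HCC827 and 30.4% in HCC4006 lay above without overlap. COL1A1 is itself 1 of the 7 markers. It made up most of the dormant sums in HCC827, at 2.83 and 2.7 FPKM, and in HCC4006, at 7.45 and 12.2 FPKM. THY1, another marker, had 5.26 and 2.37 FPKM in HCC4006 dormant cells, against 1.01 and 1.56 FPKM in HCC4006 DMSO cells, with no overlap. LUM overlapped in HCC827, with 0.82 and 0.66 FPKM in dormant cells, against 0.055 and 1.18 FPKM in DMSO cells. In HCC4006 dormant cells 2 and 3 of the 7 genes reached 1 FPKM. The defining markers DCN and COL3A1 were listed at 0 in both HCC4006 dormant libraries, and PDGFRB was listed at 0 in the first and had 1.12 FPKM in the second, the library that stood apart. Epithelial markers summed to 1836 and 483 FPKM in HCC4006 dormant cells, against 5207 and 5383 FPKM in HCC4006 DMSO cells. The 483 FPKM came from the library that stood apart. EPCAM, 1 of these markers, had 209 and 429 FPKM in HCC4006 dormant cells, against 194 and 286 FPKM in HCC4006 DMSO cells. CDH1 overlapped as well, with 51.8 and 25.9 against 38.4 and 83.4 FPKM. The keratins were lower in HCC4006 dormant cells without overlap. KRT19 had 363 and 9.9 against 2446 and 2533 FPKM, and KRT18 526 and 13 against 1587 and 1639 FPKM. KRT8 had 686 and 5.87 against 941 and 841 FPKM. The second dormant value of each came from the library that stood apart. The epithelial sums overlapped in PC9 (dormant 11907 and 19184 FPKM, DMSO 15361 and 14254 FPKM). They also overlapped in HCC827 (dormant 6453 and 6309 FPKM, DMSO 7749 and 727 FPKM). The part of these markers in the LOX and collagen values was not tested.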

How the data were processed

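Messenger RNA libraries (TruSeq Stranded mRNA, per the labels' protocols) were made from 12 samples. FPKM values were computed and deposited by the authors, rounded to 0.01. Per the submitters' processing notes, hg19 (GRCh37), Cufflinks 2.2.1, STAR 2.5.1b and DESeq2 1.10.1 were involved, in roles that are not stated. The table has 24 value columns, 2 per library. What each holds is not given in the sources used here. The columns of a library correlated at r of at least 0.993 and were averaged and counted as 1 library. No counts were analysed, so the depth is unknown and no counting interval is given. Relative depth, read from the smallest steps between FPKM values of U6 genes and set to 100% in PC9 DMSO replicate 1, was 38.2% in HCC4006 dormant replicate 2 and 70.4% to 109% elsewhere.

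Values were used as log2(FPKM + 1), without further scaling, for the 14699 genes with at least 1 FPKM in 2 libraries. A model with a mean for every group was fitted (limma 3.58.1, R 4.3.3, eBayes with trend, 6 residual and 3.84 prior degrees of freedom), so that all groups share 1 spread per gene. Contrasts were dormant minus DMSO per line, their equal-weight mean, and F tests of line by treatment and over DMSO groups. The fit was tested on simulated data. The enzymes and lists were chosen with earlier results of these data known. Named genes were the 9 enzymes, up to 3 called genes per list with the largest mean difference, and for TGM2 and LOX the 3 genes with the highest Pearson correlation. COL1A1, COL5A1, COL6A1, BMP1, SERPINH1, P4HA1 and the overlapping genes were named after their values were seen. Overlapping genes come from GENCODE v29. Promoters are from RefSeq, which held 7 of the 9 enzymes (none for TGM2 and LOXL2). Alternatives changed the pseudocount, filter, scaling, column, replicate block, weights and libraries. Tables and figures were made with Python 3.11.15, pandas 2.3.3, numpy 2.4.6 and matplotlib 3.10.9.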

Additional observations from a re-analysis of the deposited data

Results flagged for a closer look

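The difference between dormant and DMSO cells varied between the 3 lines for 4 enzymes in a limma F test of line by treatment, adjusted over all genes tested. For TGM2 the adjusted p was 0.00139, with differences of -6.69 in PC9, -0.58 in HCC827 and -0.47 in HCC4006, all of 1 sign. For LOX it was 0.00965, with 5.53 in HCC4006, 0.83 in PC9 and -0.11 in HCC827. For LOXL4 it was 0.0371, with 2.57 in PC9, 1.42 in HCC4006 and 0.04 in HCC827. For LOXL1 it was 0.045, with 2.74 in HCC827 and 1.66 in HCC4006 against -0.64 in PC9. The F test does not say which pair of lines differs.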

How the results depend on the processing

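The PC9 call of TGM2 held in all alternatives, and the HCC4006 call of LOX in all but the fit of each line alone. The 4 calls in the mean held in all that tested the gene, except with line means as replicates, where 0 enzymes were higher, 0 lower and 0 list genes higher. Without both libraries that stood apart, enzymes called higher were 5 in the mean, 3 in PC9 and 2 in HCC827, those called lower were 2 in the mean and 2 in PC9, 6 differed between DMSO groups, and 22 list genes were higher. With array quality weights 4 were higher in PC9, 2 in HCC827 and 1 in HCC4006, and 6 differed between DMSO groups. The share of all genes called is not given beside the counts here and in the next paragraphs. It moved between fits as well, as in PC9, where 399 genes were called without scaling and 618 under the median of ratios. These counts are therefore not results about the enzymes. The stricter filter, which left LOXL4 untested, gave 0 higher in PC9, 1 in HCC4006, 2 varying between lines and 6 list genes. In HCC4006 1 was higher with log2(FPKM + 0.01), no filter or median of ratios scaling. Fitting each line alone gave 0 higher in HCC827 and in HCC4006. Enzymes varying between lines were 2 with log2(FPKM + 0.1), no filter or the first column, and 1 with log2(FPKM + 0.01), where 4 differed between DMSO groups.

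Leaving out 1 library at a time gave 3 to 4 enzymes higher and 1 to 2 lower in the mean, 1 to 2 higher in PC9, 0 to 2 in HCC827, 1 to 4 higher and 0 to 2 lower in HCC4006, 1 to 7 varying between lines, 2 to 6 differing between DMSO groups, and 8 to 21 list genes higher and 0 to 3 lower. The highest counts came without either HCC4006 dormant library: without the first, 7 varied between lines, 2 were lower in the mean and in HCC4006, and 3 list genes were lower; without the second, 21 list genes were higher.

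Replicate numbers did not pair the samples: deviations of dormant and DMSO libraries of 1 number correlated at 0.091 in PC9, 0.037 in HCC827 and 0.168 in HCC4006. With a replicate block 0 enzymes were higher in HCC827 and 1 in HCC4006, and 0 varied between lines.

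Signs turned for values that were not called. In HCC4006 LOXL2 was 0.30 and PLOD1 0.85 without the second HCC4006 dormant library or without both, -1.58 and -1.05 without the first, and PLOD1 was 0.013 with the first column. In HCC827 LOXL3 was -0.18 and PLOD3 -0.62 without the second HCC827 DMSO library or without both, and 1.31 and 1.83 without the first. LOXL3 in the mean was 0.0066 without the first and -0.49 without the second HCC827 DMSO library, and LOXL4 in HCC827 was -0.027 after quantile normalization. The cause was not tested.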
